A study of Homo sapiens with 6 samples.

Results

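This report describes the protein-coding genes of human chromosome 19 whose symbol is ZNF followed by a number. They were picked by symbol, biotype and chromosome in the GENCODE annotation, and 249 of the 60676 genes in the count table met the rule. The rule uses no values, although it was chosen with earlier results of these data known. Chromosome 19 carries more zinc finger genes than any other human chromosome. The cells were SK-N-BE, a MYCN-amplified human neuroblastoma line used as a model of neurogenesis. All 6 libraries came from cells given 10 μM retinoic acid for 1.5 days, 3 of them with a control siRNA (si-SCR) and 3 with a pool of siRNAs against CyCoNP (si-CyCoNP), the cytoplasmic long noncoding RNA of the LINC02381 gene. RNA was sequenced from total RNA libraries freed of ribosomal RNA. By their labels the groups differ in the siRNAs alone, so that a response to the loss of CyCoNP and one to the siRNA pool itself cannot be told apart. Nothing in the labels ties replicates to separate cultures, and p-values measure the spread between these libraries, which may be technical.

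ZNF proteins bind DNA through arrays of C2H2 zinc fingers, each finger touching a few bases, so that the order of fingers sets the sequence a protein recognises. In most proteins made from chromosome 19 the array follows a KRAB domain, which recruits the corepressor TRIM28 and, through it, the histone methyltransferase SETDB1 and HP1 proteins, and so lays down H3K9 trimethylation. Many of these proteins silence transposable elements, and the genes themselves arose by repeated tandem duplication, which left them in long stretches of neighbours. A pattern for the KRAB domain was found in the annotated proteins of 211 of the 249 genes, and their proteins held a median of 12 fingers, with 36 in the protein richest in them.

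LINC02381 itself was at 14.9, 12.9 and 15.4 FPKM in the si-SCR libraries and at 0.973, 1.65 and 0.676 FPKM in the si-CyCoNP libraries, a log2 fold change of -3.78 ± 0.19 (SE; adjusted p = 6.84e-14, edgeR's quasi-likelihood test). FPKM are fragments scaled to gene length and to the counted fragments of a library. The libraries held 3762009 to 4799407 counted fragments each. Neuroblast markers set the cells apart from other types: mean levels in si-SCR reached 734 FPKM for PHOX2A, 428 FPKM for MYCN and 575 FPKM for CHGA, and COL1A2, CD3E, KRT5 and CDH1 had no count in any library. Of the remaining markers of fibroblasts, immune cells and epithelia, the highest mean was that of LUM with 4.31 FPKM in si-CyCoNP. Of the 8 neuroblast markers 1 rose (MYCN, to 806 FPKM) and 6 fell, among them PHOX2A to 352 FPKM and CHGA to 256 FPKM. Of the 10 markers of other types 4 had no count, 2 rose (COL1A1 from 0.450 to 1.50 FPKM, CD14 from 1.71 to 4.12 FPKM) and 1 fell (DCN from 3.0 to 1.77 FPKM). Their part in the results below was not tested. Fewer copies of an RNA per cell and a smaller share of cells that carry it cannot be told apart in such bulk samples.

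Over the ZNF genes of chromosome 19 the change after CyCoNP depletion went almost wholly one way. A level high enough to test, a mean of at least 1 FPKM in either group, was reached by 201 of the 249 genes, and 82 of the 201 were higher in si-CyCoNP and 1 was lower (adjusted p under 0.05, edgeR's quasi-likelihood test over 13966 genes). Among all genes tested, 14.2% were higher and 14.2% were lower. Past a 2-fold difference there were 19 ZNF genes higher and 0 lower, against 2.28% and 2.98% of all genes. The lower gene, ZNF536, was also the only 1 of the 201 below 0 at an unadjusted p under 0.05, and DESeq2 likewise called 1 lower gene and 0 past 2-fold. The median log2 fold change was 0.38 for the 201 genes and 0.01 for all genes. Of the 201, 16 reached the level in si-CyCoNP alone, which favours a rise, and 1 in si-SCR alone. With the 184 genes that reached it in both groups, 76 were higher and 1 was lower.

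The rise was modest and shared. In the 82 genes that rose the log2 fold change ran from 0.30 to 1.47 with a median of 0.71, and in each of the 82 every si-CyCoNP library stood above every si-SCR library. Over all 201 tested genes, in counts scaled to library size with TMM factors, the groups did not overlap in 111 genes that were higher and 3 that were lower. Among all genes tested the shares were 20.1% and 20.0%. A further 118 genes did not pass the test, 90 of them with a value above 0 and 28 with a value below 0. Their counts were lower, with a median of 392 fragments over the 6 libraries against 573 in the genes that rose, and their median standard error was 0.20 against 0.16. The remaining 48 genes were too low to test. Their median total was 24 fragments, and 6 of them had no count.

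The libraries of each group lay close together. Summed over the 249 genes, the level was 4175, 4374 and 4492 CPM (counts scaled to library size with TMM factors) in the si-SCR libraries and 5612, 5735 and 5811 CPM in the si-CyCoNP libraries, 1.32 times higher in the mean (4347 ± 160 against 5719 ± 101 CPM, SD, n = 3). The groups are well apart in this sum, which made up 0.502% of all counted fragments. Relative to the si-SCR mean of each gene, the median tested ZNF gene stood at -0.07, 0.03 and 0.08 in the si-SCR libraries and at 0.40, 0.39 and 0.40 in the si-CyCoNP libraries on the log2 scale.

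The genes were divided into stretches along the chromosome (GRCh38), a new stretch opening where no ZNF gene lay within 1 Mb. This gave 16 stretches, numbered from the short arm's tip to the long arm's end. In 7 of them at least 5 genes could be tested, and these 7 hold 228 of the 249 genes. Higher genes were found in each of the 7 and lower genes in none, although their shares differed.

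**Figure D1:**
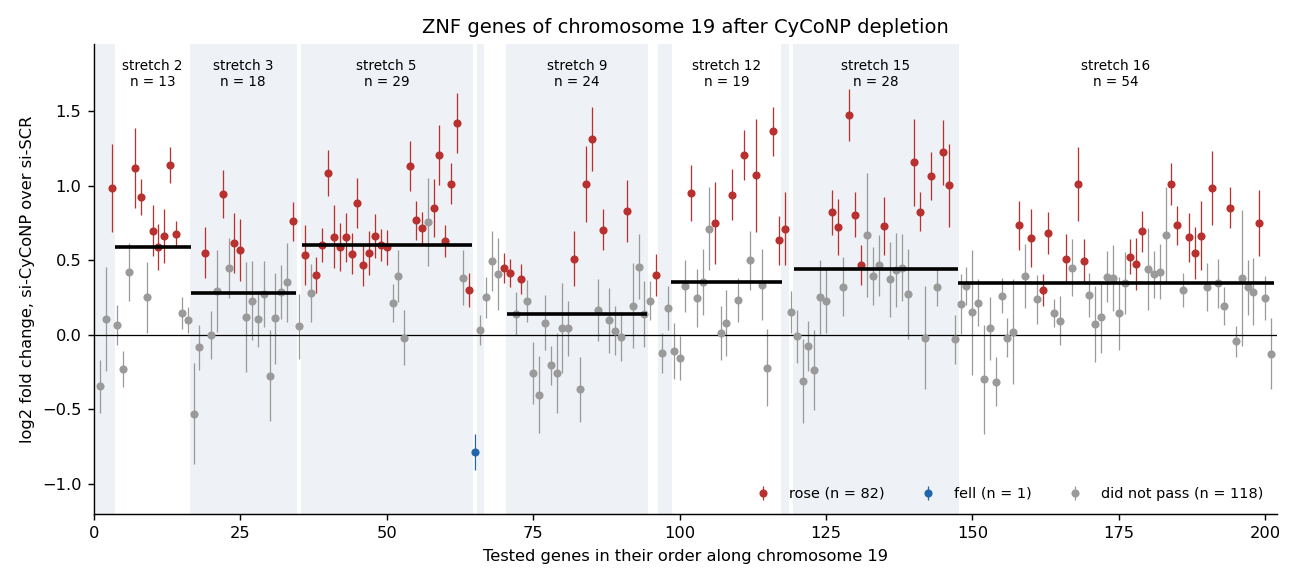
Log2 fold change (si-CyCoNP over si-SCR) of the 201 tested ZNF genes of chromosome 19, in their order along the chromosome. Points are genes with their standard error, red for those that rose, blue for ZNF536, which fell, and grey for those that did not pass; shading separates stretches and the black bars are medians of stretches with at least 5 tested genes. The 7 bars all lie above 0, from 0.14 in stretch 9 to 0.60 in stretch 5.

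Stretch 5 lies on the short arm next to the centromere (chr19:19668796-24129968, ZNF101 to ZNF254) and holds primate-expanded genes such as ZNF91 and ZNF93, whose proteins repress SVA and LINE-1 retrotransposons. Its median, 0.60, was the largest of the 7 stretches with at least 5 tested genes. Of its 29 tested genes 23 rose, 5 of them past 2-fold, none fell, and 28 had a value above 0. In addition to ZNF675, ZNF681, ZNF93 and ZNF91, the genes ZNF101, ZNF506, ZNF253, ZNF682, ZNF90, ZNF486, ZNF737, ZNF626, ZNF66, ZNF85, ZNF430, ZNF714, ZNF431, ZNF429, ZNF100, ZNF43, ZNF730, ZNF724 and ZNF254 rose, with log2 fold changes from 0.30 in ZNF254 to 1.21 in ZNF724. The summed level of the stretch's 37 genes was 664, 672 and 709 CPM in the si-SCR libraries and 1056, 1024 and 1072 CPM in the si-CyCoNP libraries.

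ZNF681 (chr19:23739195-23758891, minus strand) had the largest change in stretch 5. It was at 1.25, 1.72 and 2.64 FPKM in si-SCR and at 5.55, 4.13 and 6.20 FPKM in si-CyCoNP. The groups did not overlap, and the log2 fold change was 1.42 ± 0.20 (SE; adjusted p = 3.73e-06, edgeR). ZNF93 (chr19:19900913-19963464, plus strand), a repressor of LINE-1 elements, was at 2.38, 2.72 and 2.96 FPKM in si-SCR and at 5.79, 5.69 and 6.44 FPKM in si-CyCoNP. Its lowest treated library was near 2 times its highest control one, and the log2 fold change was 1.08 ± 0.15 (adjusted p = 3.96e-06, edgeR). ZNF675 (chr19:23525631-23687220, minus strand), whose protein is known as an inhibitor of TRAF6 signalling, was at 2.54, 2.59 and 2.77 FPKM in si-SCR and at 5.44, 5.62 and 5.69 FPKM in si-CyCoNP. Replicates of ZNF675 were tight in both groups, and the log2 fold change was 1.01 ± 0.14 (adjusted p = 2.61e-06, edgeR). ZNF91 (chr19:23304991-23395471, minus strand), a repressor of SVA elements whose protein carries 31 fingers, was at 3.93, 4.38 and 4.40 FPKM in si-SCR and at 6.73, 7.24 and 6.62 FPKM in si-CyCoNP, a log2 fold change of 0.63 ± 0.11 (adjusted p = 5.38e-05, edgeR).

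The genes of stretch 5 also share a promoter sequence. RefSeq promoters of build GRCh38.p14, 250 bases before to 50 bases after the start, were found for 218 of the 249 genes by symbol. The 3 words of 8 bases whose share in these 218 promoters most exceeded that in the 18847 promoters of other genes, read on both strands and with no use of expression, were TCCAATCA, AGGCCCCG and CCGGAAGC (a word sharing 5 bases in a row with a chosen one was passed over). TCCAATCA contains the CCAAT box sequence, which the factor NF-Y is known to bind, and CCGGAAGC contains the core bound by ETS factors. All 29 promoters of stretch 5 held TCCAATCA, 15 of them in 2 copies, as did 20 of 25 in stretch 3 and 0 of the 146 in stretches 2, 9, 12, 15 and 16. In the smaller stretches 4 of 18 held it. Among other genes it was in 1.48% of promoters. AGGCCCCG was in 24.8% of the members' promoters and 6.14% of those of other genes, and CCGGAAGC in 22.9% and 4.53%. Because the 3 words were picked for their excess over other genes, that excess follows from the choice. In 278 promoters of other genes with a ZNF symbol, TCCAATCA, AGGCCCCG and CCGGAAGC were in 6.47%, 11.2% and 11.9%. TCCAATCA was in 36.5% of promoters of members that rose, 13.2% of those that did not pass and 32.4% of those not tested. A match is a description of letters and no evidence of binding.

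The bases before the start are given 5′ to 3′ for the 3 genes of stretch 5 with the smallest p, to show the shared word, for the most changed gene of stretch 3, and for ZNF426 and ZNF616 from stretches without TCCAATCA. Capitals mark the 3 words on either strand. The windows begin 250 bases before the RefSeq start (GRCh38.p14) and end before the first base of the gene in RefSeq or GENCODE.
ZNF675, chr19:23687221-23687462 (minus strand): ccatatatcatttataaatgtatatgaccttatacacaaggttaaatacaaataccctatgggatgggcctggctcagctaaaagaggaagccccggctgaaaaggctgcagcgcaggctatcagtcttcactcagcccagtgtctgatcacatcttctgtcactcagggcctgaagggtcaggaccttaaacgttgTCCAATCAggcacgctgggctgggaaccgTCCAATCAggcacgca
ZNF93, chr19:19900696-19900912 (plus strand): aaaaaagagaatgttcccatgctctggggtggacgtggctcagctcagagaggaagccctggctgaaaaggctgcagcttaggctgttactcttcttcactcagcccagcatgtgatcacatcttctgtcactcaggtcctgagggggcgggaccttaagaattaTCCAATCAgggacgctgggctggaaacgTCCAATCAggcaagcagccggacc
ZNF681, chr19:23758892-23759141 (minus strand): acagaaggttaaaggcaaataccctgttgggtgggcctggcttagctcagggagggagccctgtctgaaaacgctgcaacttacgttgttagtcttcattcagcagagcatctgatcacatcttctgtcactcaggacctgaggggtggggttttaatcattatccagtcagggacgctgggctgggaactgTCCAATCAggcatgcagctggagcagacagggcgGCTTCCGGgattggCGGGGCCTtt
ZNF440, chr19:11814023-11814272 (plus strand): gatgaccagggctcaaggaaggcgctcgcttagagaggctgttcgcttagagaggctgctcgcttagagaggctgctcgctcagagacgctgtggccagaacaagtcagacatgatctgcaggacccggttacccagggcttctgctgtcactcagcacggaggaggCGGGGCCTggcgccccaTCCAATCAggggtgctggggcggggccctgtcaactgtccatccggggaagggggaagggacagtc
ZNF426, chr19:9538646-9538895 (minus strand): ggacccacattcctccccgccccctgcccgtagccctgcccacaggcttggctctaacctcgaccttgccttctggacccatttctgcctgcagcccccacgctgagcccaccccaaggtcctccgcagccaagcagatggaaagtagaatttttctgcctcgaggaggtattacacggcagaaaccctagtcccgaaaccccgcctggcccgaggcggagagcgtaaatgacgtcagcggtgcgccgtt
ZNF616, chr19:52139939-52140188 (minus strand): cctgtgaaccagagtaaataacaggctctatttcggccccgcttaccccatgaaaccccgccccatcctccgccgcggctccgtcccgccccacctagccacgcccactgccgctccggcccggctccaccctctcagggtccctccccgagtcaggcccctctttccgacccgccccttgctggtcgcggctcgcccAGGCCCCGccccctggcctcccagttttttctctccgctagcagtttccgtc

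In ZNF675 and ZNF93 the windows hold TCCAATCA in 2 copies close to the start, and in ZNF681 and ZNF440 they hold 1 copy. ZNF616 holds AGGCCCCG and ZNF426, which rose too, holds none of the 3 words. Of 181 tested genes with a promoter, the 41 with TCCAATCA had a median log2 fold change of 0.57 and 27 of them rose, and the 140 without it had a median of 0.32 and 47 rose. For AGGCCCCG the medians were 0.56 with and 0.30 without the word, and for CCGGAAGC they were 0.47 and 0.34. Most genes with TCCAATCA lie in stretches 5 and 3, so that the word and the position cannot be told apart, and stretch 3, where the word is also frequent, had a median of 0.28.

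Stretch 3 (chr19:11483427-12640098, ZNF653 to ZNF791) had the next smallest median of the 7 after stretch 9. Of its 18 tested genes 5 rose and none fell. ZNF440 (chr19:11814273-11835216, plus strand), a KRAB gene, changed most, from 3.32, 1.89 and 3.01 FPKM in si-SCR to 5.49, 5.83 and 5.42 FPKM in si-CyCoNP. The control libraries of ZNF440 varied more than the treated ones without reaching them, and the log2 fold change was 0.94 ± 0.16 (adjusted p = 6.02e-05, edgeR). The others were ZNF823, ZNF69, ZNF700 and ZNF791, with log2 fold changes from 0.55 to 0.76. ZNF653, without a KRAB pattern, had 1.38, 1.40 and 2.08 FPKM in si-SCR and 0.972, 1.02 and 1.57 FPKM in si-CyCoNP, a difference that did not pass the test (log2 fold change -0.53 ± 0.34, edgeR, adjusted p = 0.269).

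Stretch 2 (chr19:7069703-9793180, ZNF557 to ZNF846) is closer to the tip of the short arm. Its median was 0.59, and 7 of 13 tested genes rose and none fell. Its genes ZNF426, ZNF121 and ZNF317 were among the 10 ZNF genes with the smallest p. ZNF426 (chr19:9523223-9538645, minus strand) had the smallest p of all, with 3.24, 3.66 and 4.29 FPKM in si-SCR and 8.09, 8.95 and 8.89 FPKM in si-CyCoNP. The gap between the groups of ZNF426 exceeded the range within either, and the log2 fold change was 1.14 ± 0.12 (adjusted p = 4.75e-08, edgeR). ZNF121 (chr19:9560329-9584504, minus strand), whose protein has fingers but no KRAB pattern, was more abundant, with 16.1, 18.1 and 18.0 FPKM in si-SCR and 27.6, 29.7 and 30.1 FPKM in si-CyCoNP. It rose by less, a log2 fold change of 0.68 ± 0.09 (adjusted p = 6.43e-07, edgeR). ZNF317 (chr19:9140397-9163424, plus strand) went from 5.35, 5.90 and 5.88 FPKM to 11.2, 11.8 and 11.04 FPKM, a log2 fold change of 0.92 ± 0.12 (adjusted p = 7.93e-07, edgeR). ZNF558, ZNF559, ZNF266 and ZNF560 also rose, by 0.59 to 1.12 on the log2 scale. ZNF358, without a KRAB pattern and among the 5 most abundant ZNF genes, was at a mean of 24.0 ± 2.2 FPKM (SD, n = 3) in si-SCR, and at 21.5 ± 2.8 FPKM in si-CyCoNP. Its groups overlapped, and the difference did not pass the test (log2 fold change -0.23 ± 0.12, edgeR, adjusted p = 0.178).

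**Figure D2:**
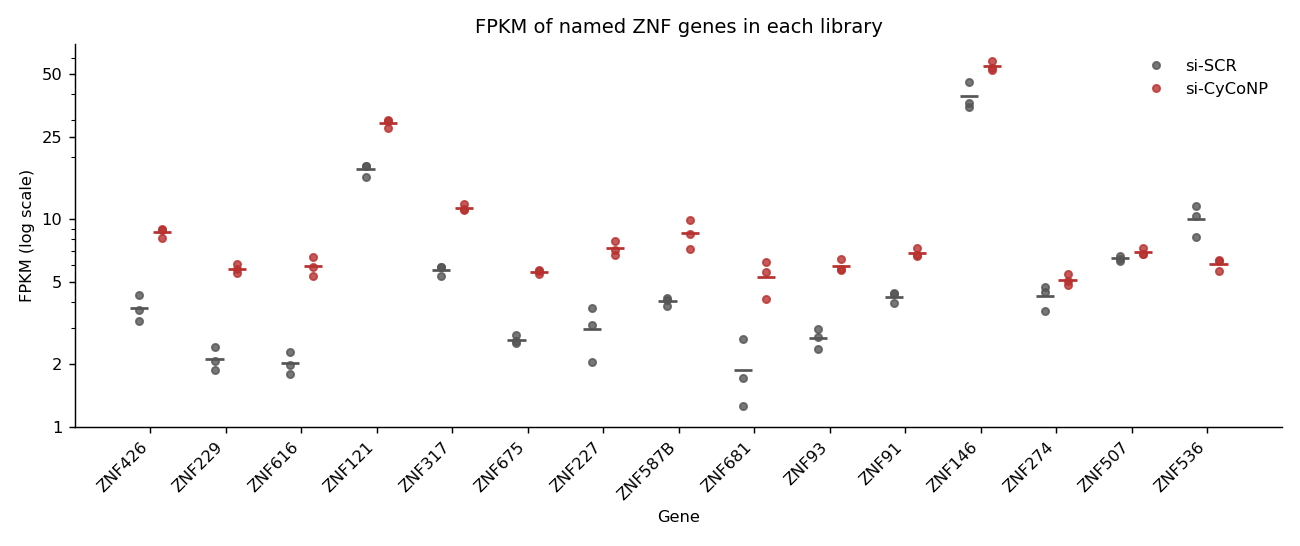
FPKM, on a log axis, of 15 named ZNF genes in each of the 6 libraries, si-SCR in grey and si-CyCoNP in red; short lines are group means. The 10 genes on the left, from ZNF426 to ZNF93, have no overlap between groups, and ZNF536 on the right is the gene that fell. ZNF274 and ZNF507 have groups that nearly touch in FPKM and overlap in TMM-scaled counts.

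On the long arm, stretch 9 (chr19:36182276-37817300, ZNF565 to ZNF573) had the smallest median, 0.14, of the 7 stretches with at least 5 tested genes, and 7 of its 24 tested genes rose. ZNF585B (chr19:37181579-37218153, minus strand) stood out in it, with 1.61, 0.67 and 1.33 FPKM in si-SCR and 2.90, 3.22 and 3.46 FPKM in si-CyCoNP, a log2 fold change of 1.31 ± 0.22 (adjusted p = 3.01e-05, edgeR). Its paralog ZNF585A rose too, by 1.01 on the log2 scale. Of the 100-base words of the longest ZNF585B transcript, 17.1% recur in transcripts of other genes. Fragments from such words can be lost, because only uniquely mapping ones were counted. ZNF146 (chr19:36214602-36238771, plus strand), a protein made of fingers without a KRAB domain, was the most abundant of all the ZNF genes of chromosome 19. It was at 36.4, 34.7 and 46.1 FPKM in si-SCR and at 52.3, 53.6 and 57.7 FPKM in si-CyCoNP, a log2 fold change of 0.41 ± 0.09 (adjusted p = 0.00121, edgeR). ZNF260, ZNF568, ZNF875 and ZNF793 were the other genes that rose. ZNF382, a KRAB protein described as a tumour suppressor, was at 1.30, 3.05 and 2.4 FPKM in si-SCR and at 1.53, 2.39 and 1.98 FPKM in si-CyCoNP. Its groups overlapped widely, and the log2 fold change was -0.26 ± 0.21 (adjusted p = 0.401, edgeR). Without si-SCR replicate 1, its lowest control library, ZNF382 passed the test as lower, with a log2 fold change of -0.52 (adjusted p = 0.023, edgeR). ZNF420, ZNF850 and ZNF461 of this stretch also had values below 0, from -0.40 to -0.20, with adjusted p (edgeR) from 0.234 to 0.271.

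Stretch 12 (chr19:43525497-45076478, ZNF575 to ZNF296) had 7 of 19 tested genes higher and a median of 0.35. ZNF229 (chr19:44417519-44448578, minus strand) was at 2.07, 1.88 and 2.43 FPKM in si-SCR and at 5.76, 6.08 and 5.53 FPKM in si-CyCoNP. Its groups were far apart, with a log2 fold change of 1.36 ± 0.16 (adjusted p = 2.49e-07, edgeR). ZNF227 (chr19:44207547-44237268, plus strand), a KRAB gene of the same row of duplicates, was at 3.08, 2.05 and 3.75 FPKM in si-SCR and at 7.89, 7.10 and 6.71 FPKM in si-CyCoNP, with a log2 fold change of 1.21 ± 0.17 (adjusted p = 3.17e-06, edgeR). The controls of ZNF227 spread more than those of ZNF229 and stayed below every treated library. ZNF45, ZNF222, ZNF234, ZNF233 and ZNF180 rose by 0.64 to 1.07 on the log2 scale. ZNF296, at the end of the stretch, had 4 to 7 fragments per library and was not tested.

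Stretch 15 (chr19:51571283-53580269, ZNF175 to ZNF331) had 11 of 28 tested genes higher, 5 of them past 2-fold, and a median of 0.44. ZNF616 (chr19:52113091-52139938, minus strand), a KRAB gene with 21 fingers, had the largest log2 fold change of all the tested ZNF genes of chromosome 19. It was at 1.99, 1.79 and 2.30 FPKM in si-SCR and at 5.35, 5.90 and 6.59 FPKM in si-CyCoNP. The treated libraries were all more than 2 times the highest control one, and the log2 fold change was 1.47 ± 0.18 (adjusted p = 2.57e-07, edgeR). ZNF614, ZNF432, ZNF766, ZNF480, ZNF808, ZNF468, ZNF320, ZNF160, ZNF845 and ZNF761 also rose, by 0.47 to 1.22 on the log2 scale. ZNF331, a gene known to be imprinted, was at 2.39, 2.66 and 3.69 FPKM in si-SCR and at 2.59, 3.67 and 2.77 FPKM in si-CyCoNP. Its groups overlapped and the log2 fold change was -0.03 ± 0.17 (adjusted p = 0.918, edgeR). ZNF577 was at 1.34 ± 0.65 FPKM (SD, n = 3) in si-SCR, and at 1.12 ± 0.20 FPKM in si-CyCoNP, with a log2 fold change of -0.31 ± 0.28 (adjusted p = 0.448, edgeR).

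Stretch 16 (chr19:55476617-58481230, ZNF628 to ZNF446) reaches the end of the long arm and holds the most genes. Of 54 tested 18 rose and none fell, and 49 had a value above 0, with a median of 0.35. ZNF587B (chr19:57819721-57846238, plus strand) changed most, from 3.81, 4.10 and 4.17 FPKM in si-SCR to 7.18, 9.97 and 8.49 FPKM in si-CyCoNP, a log2 fold change of 1.01 ± 0.14 (adjusted p = 3.22e-06, edgeR). 8.15% of the 100-base words of its longest transcript recur in other genes. ZNF583, ZNF470, ZNF264, ZNF805, ZNF304, ZNF17, ZNF749, ZNF134, ZNF211, ZNF551, ZNF814, ZNF417, ZNF418, ZNF256, ZNF135, ZNF544 and ZNF324B rose by 0.30 to 1.01 on the log2 scale. ZNF274, whose protein binds within the 3′ ends of ZNF genes and brings SETDB1 there, was at 3.60, 4.47 and 4.72 FPKM in si-SCR and at 5.43, 4.83 and 5.07 FPKM in si-CyCoNP. Its highest control library and lowest treated one nearly touched in FPKM, and the groups overlapped in TMM-scaled counts. The difference did not pass the test (log2 fold change 0.20 ± 0.13, edgeR, adjusted p = 0.278). ZNF460, at a mean of 28.5 FPKM the next most abundant after ZNF146, had a log2 fold change of 0.15 ± 0.09 (adjusted p = 0.261, edgeR). ZNF444 was at 5.39 ± 0.62 FPKM (SD, n = 3) in si-SCR, and at 5.55 ± 0.67 FPKM in si-CyCoNP and did not pass (log2 fold change -0.02 ± 0.13, edgeR, adjusted p = 0.933). ZNF581 had a log2 fold change of -0.31 ± 0.16 (adjusted p = 0.165, edgeR).

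**Figure D3:**
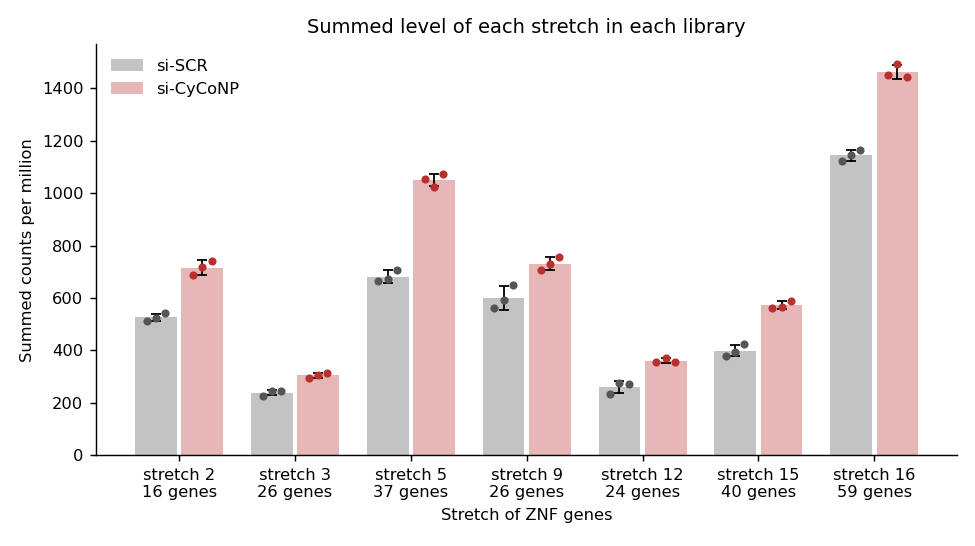
Summed level, in CPM (TMM-scaled counts), of the genes of each stretch with at least 5 tested genes. Bars are means of 3 libraries, error bars the SD and points the libraries, si-SCR in grey and si-CyCoNP in red. Every si-CyCoNP library lies above every si-SCR library in all 7 stretches, and the ratio of means runs from 1.22 in stretch 9 to 1.54 in stretch 5.

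The 9 smaller stretches held 16 tested genes, of which 4 rose and 1 fell. ZNF77, ZNF792, ZNF780A and ZNF114 were those that rose. ZNF792, one of the 5 most abundant ZNF genes, was at 15.4, 15.8 and 15.7 FPKM in si-SCR and at 19.9, 23.5 and 23.7 FPKM in si-CyCoNP, a log2 fold change of 0.45 ± 0.10 (adjusted p = 0.00111, edgeR). ZNF555, beside ZNF77 near the short arm's tip, had a log2 fold change of -0.34 ± 0.18 (adjusted p = 0.163, edgeR).

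The gene that fell has no ZNF gene near it. ZNF536 (chr19:30224891-30713586, plus strand), a brain-expressed zinc finger gene without a KRAB pattern, known as a negative regulator of neuronal differentiation, was at 10.4, 11.5 and 8.21 FPKM in si-SCR and at 5.61, 6.33 and 6.32 FPKM in si-CyCoNP. The lowest control library was above the highest treated one, and the log2 fold change was -0.79 ± 0.12 (adjusted p = 1.18e-05, edgeR). ZNF507 (chr19:32345594-32387667, plus strand), the next ZNF gene along the chromosome, also isolated, without a KRAB pattern and linked to neurodevelopment, was at 6.67, 6.46 and 6.32 FPKM in si-SCR and at 6.82, 6.78 and 7.23 FPKM in si-CyCoNP. Its log2 fold change was 0.03 ± 0.10 and did not pass the test (adjusted p = 0.845, edgeR).

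Neighbouring ZNF genes mostly had values of the same sign. Of 200 pairs of tested ZNF genes adjacent on chromosome 19, 79.0% had log2 fold changes of the same sign, against 53.4% of 10487 adjacent pairs of protein-coding genes. With 85.6% of the 201 values above 0, most pairs would have the same sign without regard to position. Among protein-coding genes tested 49.4% of values were above 0, so that the shares of pairs cannot be compared directly. Where other genes between ZNF genes could be tested, they showed no lean towards higher values. Of 55 other protein-coding genes inside the stretches, 9 (16.4%) rose and 12 (21.8%) fell, with a median log2 fold change of -0.07. No such gene was tested in stretch 5, where 23 of 29 ZNF genes rose, or in stretch 9. The median GC content of the 55 genes was 60.2%, against 42.1% for the tested ZNF genes. In stretch 2, where the 13 tested ZNF genes had a median log2 fold change of 0.59, 20 such neighbours had a median of -0.15 with 3 higher and 5 lower. Of 8 zinc finger genes under other symbols (ZFP, ZIM, ZIK, ZSCAN and the like) within the stretches, 3 rose and none fell. Of 510 protein-coding genes of chromosome 19 outside the stretches, 114 (22.4%) rose and 72 (14.1%) fell, with a median of 0.03. Of all protein-coding genes tested, 17.3% rose and 18.1% fell.

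ZNF genes elsewhere in the genome also leaned upwards. Of 209 tested protein-coding ZNF genes on other chromosomes, 64 rose and 8 fell, with a median log2 fold change of 0.22. Split by the KRAB pattern, the values on and off chromosome 19 lay close together. On chromosome 19, 76 of 170 tested genes with the pattern rose and none fell, with a median of 0.43. On other chromosomes 40 of 86 with the pattern rose and none fell, with a median of 0.43. Without the pattern, 6 of 31 rose and 1 fell on chromosome 19 (median 0.18), and 24 of 123 rose and 8 fell elsewhere (median 0.14). The 6 on chromosome 19 were ZNF121, ZNF714, ZNF146, ZNF260, ZNF180 and ZNF134. A gene without a match to this single pattern may still encode a KRAB domain, so that the groups without the pattern may be mixed. These counts describe the groups, and the difference between them was not tested. Genes with a KRAB pattern also had a lower GC content than those without it, a median of 41.8% against 57.8% on chromosome 19.

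**Figure D4:**
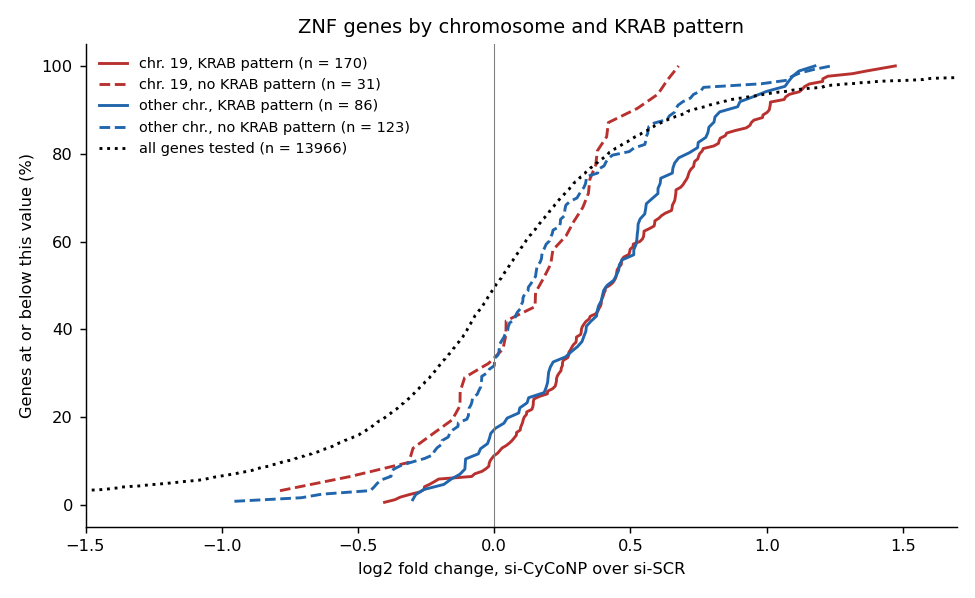
Cumulative share of genes, in percent, at or below each log2 fold change (si-CyCoNP over si-SCR), for ZNF genes of chromosome 19 (red) and of other chromosomes (blue) with a KRAB pattern (solid) and without one (dashed), and for all 13966 genes tested (dotted). The axis stops at -1.5 and 1.7. The solid lines nearly coincide, with medians of 0.43 on and off chromosome 19, and lie to the right of the dashed ones, whose medians are 0.18 and 0.14.

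GC content, number of fingers and sequence sharing were set beside the change. Of the tested ZNF genes of chromosome 19, 56 had a GC content under 40%, and 26 of them rose and none fell. Among other protein-coding genes of that GC content, 260 of 1988 rose and 455 fell, with a median log2 fold change of -0.06 against 0.39. Between 40% and 45% GC, 43 of 90 ZNF genes (47.8%) rose and none fell. Of 2203 other protein-coding genes there, 325 (14.8%) rose and 428 fell. From 45% GC upwards the shares of higher genes lay closer, at 13 of 55 ZNF genes (23.6%) against 1150 of 6119 others (18.8%). There 1 ZNF gene was lower against 1015 of the others, and the medians were 0.32 and 0.01. By the number of fingers, 12 of 52 genes with up to 9 fingers rose, 39 of 88 with 10 to 14 and 31 of 61 with 15 or more, with medians of 0.26, 0.39 and 0.50. Across the 201 genes Spearman's rho of the log2 fold change was 0.18 with the number of fingers, -0.19 with GC content and 0.03 with the mean FPKM. These are descriptions across genes that share libraries and sequence. Of 120 genes whose longest transcript held no 100-base word of another gene, 46 rose and 1 fell, and of 38 with over 5% of such words, 16 rose and none fell. ZNF genes on the same strand with shared exons, such as read-through genes, cannot be told apart from their partners. Among the 131 without exon overlap 50 rose and none fell.

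KRAB zinc finger proteins act through a set of corepressors and chromatin proteins, and 23 genes of this machinery were read as a list, all of them tested. Of these 6 rose and 3 fell, with a median log2 fold change of 0.08, and 14.2% of all genes rose and as many fell. TRIM28, the corepressor that binds KRAB domains, was at 42.2, 43.3 and 47.5 FPKM in si-SCR and at 47.0, 50.9 and 48.2 FPKM in si-CyCoNP. The log2 fold change was 0.07 ± 0.08 and did not pass the test (adjusted p = 0.578, edgeR). SETDB1, which writes H3K9 trimethylation, was at 8.50, 8.28 and 9.85 FPKM in si-SCR and at 9.96, 9.12 and 10.5 FPKM in si-CyCoNP, with a log2 fold change of 0.08 ± 0.11 (adjusted p = 0.606, edgeR).

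The HP1 genes, whose proteins bind that mark, went different ways. CBX1 (HP1 beta) was at 22.4, 20.6 and 28.4 FPKM in si-SCR and at 34.8, 40.2 and 38.0 FPKM in si-CyCoNP, a log2 fold change of 0.59 ± 0.11 (adjusted p = 9.24e-05, edgeR). CBX3 (HP1 gamma) was at 61.3, 56.0 and 57.8 FPKM in si-SCR and at 45.4, 44.6 and 47.6 FPKM in si-CyCoNP, a fall with a log2 fold change of -0.42 ± 0.08 (adjusted p = 0.000259, edgeR). CBX5 (HP1 alpha) did not pass, with a log2 fold change of 0.01 ± 0.08. The HUSH complex, which spreads the mark over young transposable elements, rose in MPHOSPH8 (0.48 ± 0.11, edgeR, adjusted p = 0.00172) and TASOR (0.46 ± 0.12, adjusted p = 0.00356) with its partner MORC2 (0.29 ± 0.09, adjusted p = 0.0133), and its subunit PPHLN1 had -0.17 ± 0.11 and did not pass. The histone deacetylase HDAC1 (0.65 ± 0.13, edgeR, adjusted p = 0.000369) and the H3K9 methyltransferase SUV39H2 (0.57 ± 0.14, adjusted p = 0.00247) rose. The chromatin remodellers ATRX (-0.54 ± 0.08, edgeR, adjusted p = 9.1e-06) and SMARCAD1 (-0.42 ± 0.09, adjusted p = 0.00051) fell.

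**Figure D5:**
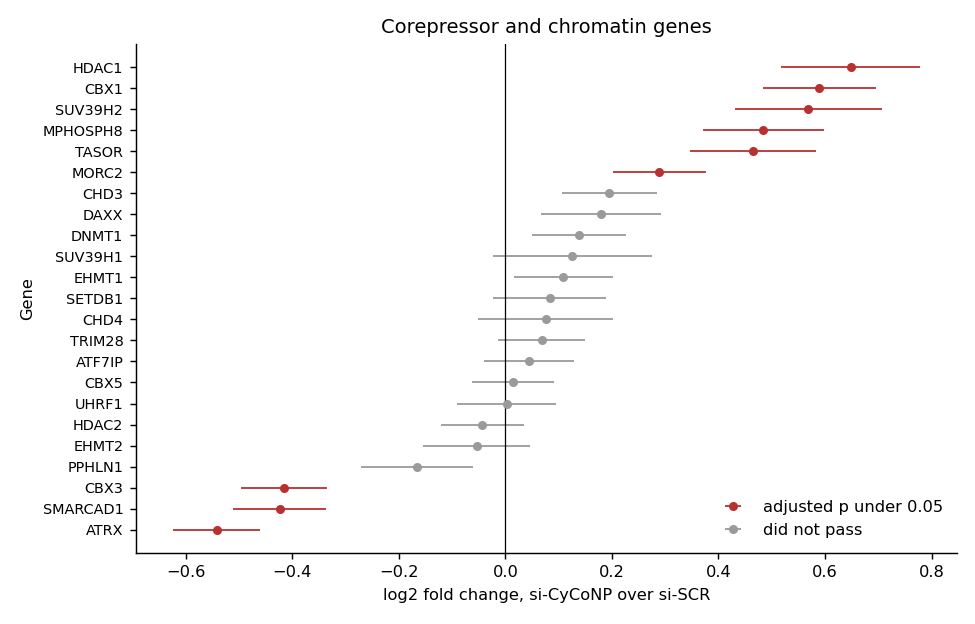
Log2 fold change (si-CyCoNP over si-SCR) with its standard error for 23 corepressor and chromatin genes. Red points passed an adjusted p of 0.05, 6 to the right of 0 and 3 to the left, and grey ones, TRIM28 and SETDB1 among them, did not.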

How the data were processed

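The counts are whole fragments per gene as deposited by the authors, not normalized. Per their methods and the submitters' processing notes, reads were trimmed with Trimmomatic (0.39) and cutadapt (3.2), cleared of ribosomal RNA with Bowtie2 (2.4.2), aligned to GRCh38 with STAR (2.7.7a), and uniquely mapping fragments were counted per gene of Ensembl release 99. FPKM values were made by the authors from these counts by gene length and library total. Because fragments that map to several places were discarded, near-identical ZNF paralogs are undercounted.

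Of 60676 genes, 60357 were matched by Ensembl identifier to GENCODE release 44. Genes that averaged 1 FPKM or more in si-SCR or si-CyCoNP were tested on counts with edgeR (4.0.16) in R (4.3.3), quasi-likelihood test, TMM factors, si-CyCoNP against si-SCR without further covariates, with Benjamini-Hochberg adjustment over all 13966 genes. Standard errors were worked back from this test, as the absolute log2 fold change divided by the square root of its F statistic. The tests were checked on simulated data with changes of 2-fold or more, so that the check does not cover smaller changes. The counting error of 3762009 to 4799407 fragments per library limits the precision of low genes: the 201 tested ZNF genes had 70 to 5081 fragments over the 6 libraries. The zinc finger pattern was C, 2 residues, C, 12 residues, H, 3 to 5 residues, H, and the KRAB pattern was searched in every annotated coding transcript. Named genes were the 10 with the smallest p in each direction, the 5 with the highest mean FPKM, the most changed gene of each stretch with at least 5 tested genes, 10 genes listed for their known roles, the corepressor genes that passed the test with TRIM28 and SETDB1, and LINC02381; the further genes that rose are given by name because they passed the test. The genes, lists and stretches were chosen with earlier results of these data known. Alternatives were DESeq2 (1.42.0), other scalings and filters, a replicate block, leaving out each library, limma (3.58.1) on log2(FPKM + 1) and log2(FPKM + 0.1), and a GC and length offset.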

Additional observations from a re-analysis of the deposited data

How the results depend on the processing

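The lean towards higher values held in the 16 alternatives to the main test. Members of the set called higher numbered 65 to 85 when a library was left out, 66 with DESeq2 and with either log2(FPKM) scale, 74 with a GC and length offset and 94 with library totals alone. Of the 82 genes that rose, 82 kept a positive value in the main test and in every alternative, and 51 stayed past the threshold in all of them. 1 gene fell in the main test, and leaving out a library gave 1 to 2. The genes past 2-fold numbered 6 on the log2(FPKM + 1) scale, which by its construction shrinks changes of low genes, and 17 to 21 when a library was left out. The median log2 fold change ran from 0.35 to 0.41 without a library and from 0.32 to 0.45 over the others. Over all genes the split of calls moved with the scaling: 2465 higher and 1574 lower with library totals alone, 1582 and 2422 with the GC and length offset, and 1765 and 1118 on the log2(FPKM + 1) scale, against 1982 and 1990. The filters and settings for members in both groups, for the KRAB groups and for the corepressor list were added after seeing the data. Corepressor genes called higher numbered 5 to 8 and those called lower 3 throughout.

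Whether the replicate numbers pair the libraries is not settled. Same-numbered deviations from the group means correlated at 0.09, 0.07 and 0.11, and differently numbered ones at -0.07 to -0.02. The main test takes no account of a pairing. A replicate block gave 93 members higher, 1 lower and 21 past 2-fold, and over all genes 2403 higher and 2368 lower. Values near 0 changed sign. ZNF331 had 0.0354 with library totals alone, 0.0399 with log2(FPKM + 1) and 0.0536 with log2(FPKM + 0.1), and ZNF444 had 0.0480, 0.0363 and 0.0421. Without a library, ZNF331 ran from -0.189 to 0.164, ZNF444 from -0.118 to 0.0805, ZNF507 from -0.00785 to 0.0676, ZNF577 from -0.551 to 0.137 and ZNF382 from -0.523 to 0.0157, where ZNF382 passed the test without si-SCR replicate 1 (adjusted p = 0.023, edgeR; 0.023 to 0.969 over its alternatives). The cause was not tested. A gap of 2 Mb in place of 1 Mb gave 8 stretches and a gap of 0.5 Mb gave 20.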
